A study of Mus musculus with 60 samples.

Results

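The kidney transcriptome of cKOt mice was compared between ZT12, when the lights went off, and ZT16, 4 hours into the dark. ZT is Zeitgeber time, the number of hours since lights on under 12 hours of light and 12 hours of dark. The members were chosen by genotype and time of collection in the labels alone, and all 5 mice of each time point were kept, so that 10 of the 60 sequenced kidneys entered the comparison. The series measured messenger RNA by sequencing in kidneys of cKOt and control mice, 5 of each genotype at each of 6 times of day. cKOt mice carried the alleles Bmal1lox/lox, Pax8-rtTA and LC1, the last of which places Cre recombinase under a doxycycline-dependent promoter, and controls were Bmal1lox/lox littermates. All were males on a C57BL/6J background with free access to chow. Both genotypes drank doxycycline (DOX, 2 mg/ml, with sucrose) for 2 weeks from 8 weeks of age, and kidneys were collected 4 weeks after DOX ended. Pax8-rtTA drives recombination along the renal tubule, so that cells of vessels, interstitium and blood keep Bmal1 (also called Arntl). The mice lived in a light cycle and ate when they chose, so that light, feeding and activity changed together between ZT12 and ZT16 and cannot be told apart here.

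BMAL1 pairs with CLOCK or NPAS2 and binds E-boxes in the promoters of Per, Cry, Nr1d and PAR bZIP genes. The products of the Per and Cry genes inhibit this pair, and REV-ERB proteins encoded by Nr1d1 and Nr1d2 repress Arntl and Npas2. Feeding and activity at night also bring daily changes in body temperature and insulin. Heat shock factor, the unfolded protein response of the endoplasmic reticulum (ER) and PPAR alpha, a receptor that turns on fatty acid oxidation genes in fasting, respond to such signals.

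Gene counts per mouse totalled 17950038 to 19202421, with a median of 18411015. The labels name the renal tubule as the source, while the study's methods describe frozen kidney tissue. Proximal tubule markers summed to 12055 to 13988 CPM (counts scaled to library size with TMM factors) at ZT12 and 12570 to 15467 CPM at ZT16. Cells outside the tubule were also represented. The 5 podocyte markers summed to 306 to 370 CPM over all 10 mice, the 7 endothelial markers to 423 to 516 CPM and the 8 macrophage markers to 180 to 283 CPM, and none of these 20 genes was called. In such bulk tissue, fewer cells of a type and less RNA per cell cannot be told apart.

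In all, 3 ZT12 libraries stood apart. On the first principal component of the 10 mice, which held 38.2% of the variance, ZT12 mice 1 and 5 lay at -37.5 and -32.0, the other ZT12 mice at -10.9, -1.57 and -3.20, and the ZT16 mice at 7.57 to 22.4. Mouse 3 at ZT12 differed in fatty acid oxidation genes, as described with those genes. The study's sample list marks ZT16 mouse 4 for removal, and it was kept here. Where the call of a named gene was lost without ZT12 mice 1 and 5, ZT12 mouse 3 or ZT16 mouse 4, the adjusted p without them stands beside it. RNA batches 2, 3 and 4 of that list each held 1 mouse of either time point, and the other mice of a batch belonged to 1 time point only. The CPM values given per mouse follow the replicate numbers 1 to 5, which have no order of their own. Nothing in the labels says more about how the replicates were kept, and they are taken as separate mice.

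Of 15546 genes tested with edgeR's quasi-likelihood test, 991 rose and 985 fell from ZT12 to ZT16 in cKOt kidney at a Benjamini-Hochberg adjusted p below 0.05, which is 6.37% and 6.34% of genes (12.7% in either direction). Most shifts were small. The median absolute log2 fold change of called genes was 0.31, 168 rising and 164 falling genes reached 1.5-fold, and 42 and 44 reached a 2-fold change. The median over all genes was 0.0057. The fit included 2 RUVs factors, estimates of unwanted variation taken from the spread within groups, so that fitted changes can differ from the ratio of the CPM values. On the first factor ZT12 mice 1 and 5 stood at -0.373 and -0.282 and the other ZT12 mice at -0.0526, 0.0675 and 0.0569. The ZT16 mice stood at -0.00287 to 0.158, so that this factor was not balanced between the time points. How this shaped the calls was not tested. All 5 ZT16 mice lay above all 5 ZT12 mice for 6.70% of genes tested and below them for 5.55%. Calls were counted in 29 lists of genes, of which those with at least 5 members tested are in the plot of called shares by list. The renin-angiotensin list, with 1 of 9 members lower and none higher, is not described further. List counts stand beside shares of 6.37% (higher) and 6.34% (lower) over all genes.

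**Figure D1:**
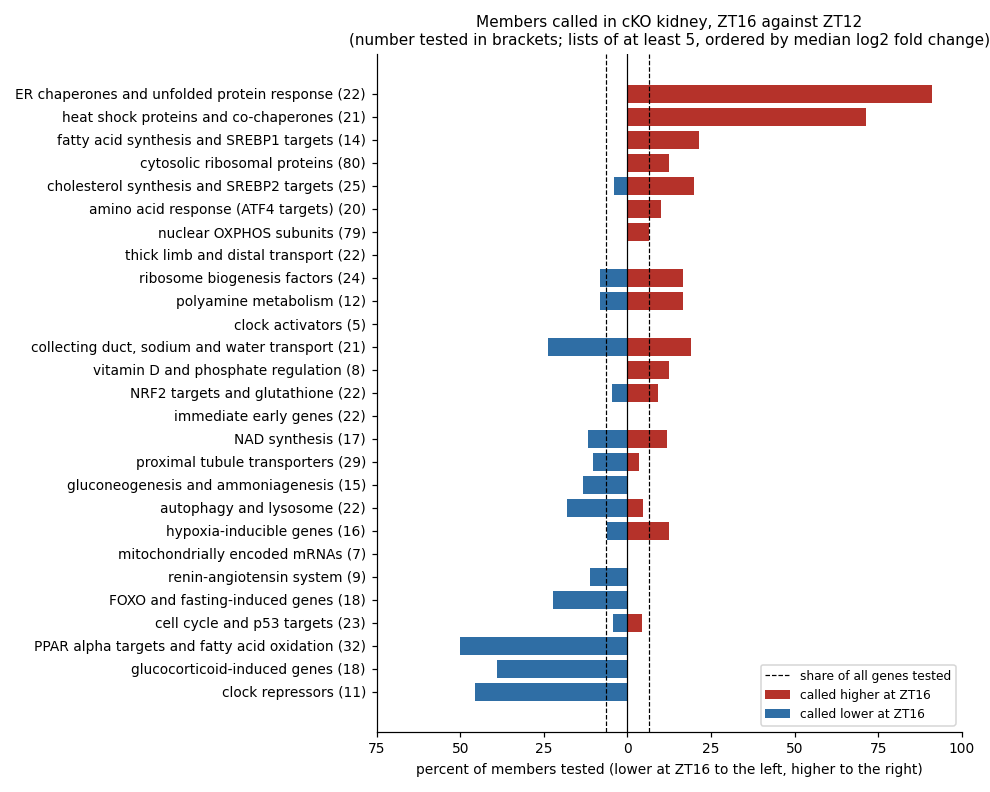
Percentage of each list's tested members called higher (red bars, to the right) or lower (blue bars, to the left) at ZT16 than at ZT12 in cKOt kidney, with the number tested in brackets and the shares of all genes, 6.37% and 6.34%, as dashed lines. The ER chaperone list (20 of 22 members higher) and the heat shock list (15 of 21 higher) hold the highest shares, and the PPAR alpha list has 16 of 32 members lower.

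Clock repressors and PAR bZIP genes fell across lights off in kidneys with Bmal1 targeted in the tubule. Of 11 clock repressors 5 fell, and of 3 PAR bZIP factors 2 fell, beside 6.34% of all genes, with medians of -0.38 and -0.37. Dbp, a PAR bZIP transcription factor on chromosome 7 from 45705088 to 45710203, stood at 12.5, 12.7, 17.0, 14.6 and 11.9 CPM at ZT12 and at 3.79, 2.36, 4.59, 5.17 and 3.66 CPM at ZT16. The groups did not overlap, and Dbp had the strongest decrease among the named genes whose time points did not overlap, 4.14-fold lower (log2 fold change -2.05, SE 0.23, edgeR adjusted p = 2.94e-09).

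Nr1d1 and Nr1d2, whose nuclear receptor products repress Arntl, fell with it. Nr1d1 read 9.18, 16.3, 12.4, 11.4 and 11.5 CPM at ZT12 and 3.58, 1.66, 5.23, 6.44 and 5.11 CPM at ZT16, a fitted change of -1.72 (SE 0.27, edgeR adjusted p = 7.26e-06). Nr1d2 read 65.3, 61.8, 59.2, 51.4 and 79.3 CPM against 25.4, 27.1, 32.6, 31.0 and 34.1 CPM, a change of -0.92 (SE 0.15, edgeR adjusted p = 1.49e-05). In both, every ZT16 mouse lay below every ZT12 mouse. Ciart, a repressor of the CLOCK complex, went from 2.82, 2.5, 2.63, 2.52 and 2.91 CPM to 0.467, 0.590, 0.854, 0.852 and 0.568 CPM without overlap, and was 3.73-fold lower (log2 fold change -1.90, SE 0.41, edgeR adjusted p = 0.00103). Its counts were low, from 9 to 55 reads per library.

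The Per genes did not move together. Per1, also a target of glucocorticoids, read 19.3, 35.2, 30.5, 35.0 and 32.5 CPM at ZT12 and 13.4, 18.4, 16.9, 24.1 and 26.1 CPM at ZT16. Its groups overlapped through ZT12 mouse 1, and it fell by 0.91 on the log2 scale (SE 0.23, edgeR adjusted p = 0.00416). The call was lost without RUVs factors (-0.63, adjusted p = 0.0506). Per2 read 47.5, 60.4, 63.7, 58.3 and 54.6 CPM and then 101, 97.1, 69.5, 71.6 and 70.0 CPM, higher in every ZT16 mouse, but with a log2 difference of 0.42 it did not pass (SE 0.16, edgeR adjusted p = 0.0803). Without RUVs factors Per2 was called higher (0.53, edgeR adjusted p = 0.0157), as it was with batch in their place (0.51, adjusted p = 0.0225). Per3 was lower in every ZT16 mouse, 15.0 to 21.2 CPM against 22.7 to 27.2 CPM, and did not pass either (-0.38, SE 0.16, edgeR adjusted p = 0.118).

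Among the remaining repressors, Bhlhe41 fell from 4.57 ± 0.976 to 2.44 ± 1.03 CPM (SD, n = 5 each, edgeR adjusted p = 0.0161), a call that was lost without ZT12 mice 1 and 5 (adjusted p = 0.0650). Cry1 (30.2 ± 1.54 and 35.1 ± 1.86 CPM), Cry2 (44.3 ± 4.54 and 45.5 ± 3.01 CPM), Bhlhe40 (103 ± 15.5 and 129 ± 38.3 CPM) and Nfil3 (21.9 ± 6.83 and 22.9 ± 7.60 CPM) were not called. Tef, a relative of Dbp, fell from 282 ± 28.3 to 222 ± 17.0 CPM (edgeR adjusted p = 0.00602), whereas Hlf, the other PAR bZIP gene, stood at 154 ± 14.1 and 153 ± 11.6 CPM.

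**Figure D2:**
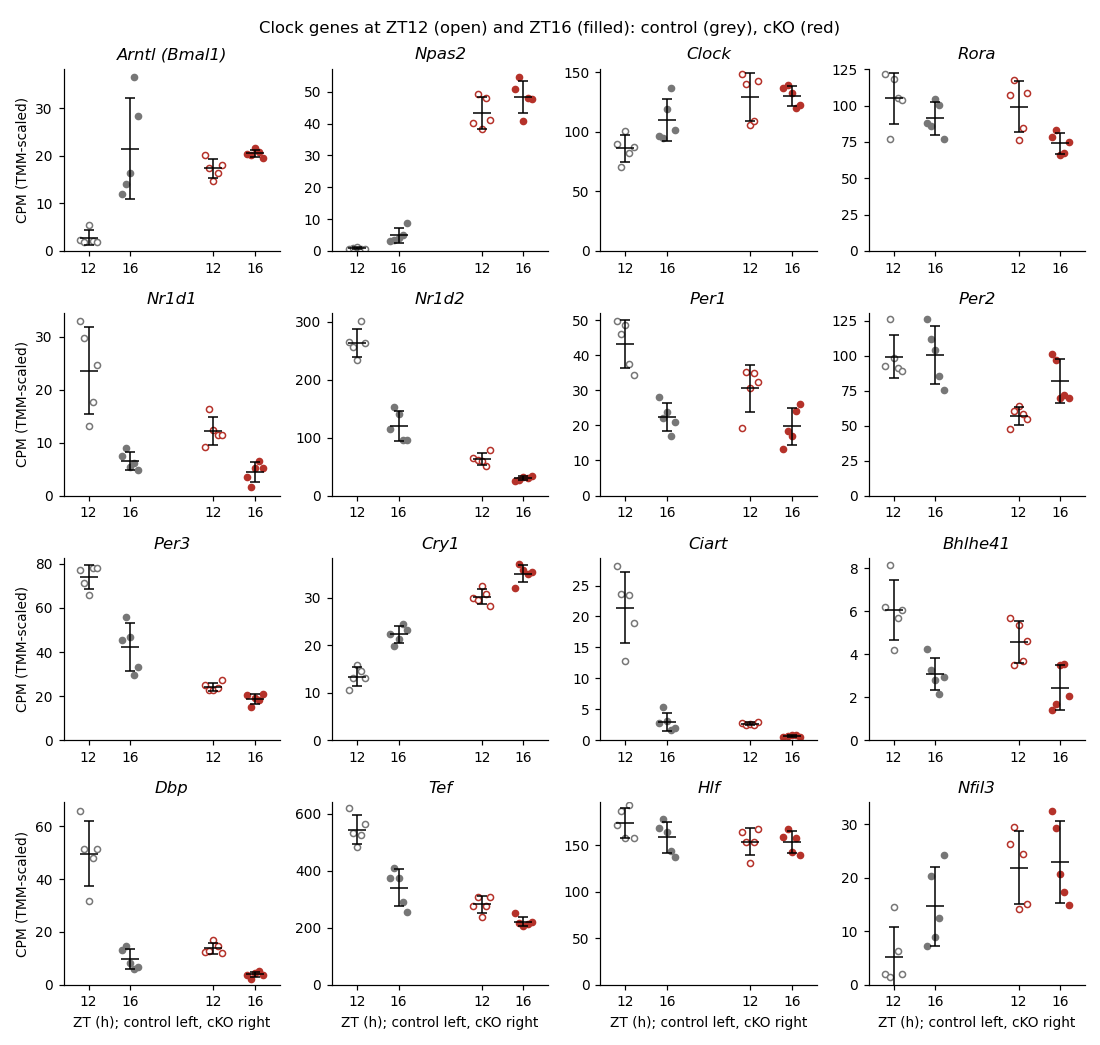
CPM of 16 clock genes (linear axes from 0) in each mouse at ZT12 (open points) and ZT16 (filled points) in control (grey, left) and cKOt (red, right) kidney, with the mean and SD of 5 mice as bars. Dbp, Nr1d1, Nr1d2 and Ciart are lower in all 5 ZT16 cKOt mice than in any ZT12 cKOt mouse, while Arntl and Npas2 sit at 14.6 to 21.6 and 38.3 to 54.5 CPM in both cKOt groups.

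Over the whole day in cKOt kidney, the means of Dbp, Nr1d1, Nr1d2 and Ciart were highest at ZT8 or ZT12. Mean Dbp was 2.5, 4.04, 14.9, 13.7, 3.91 and 2.51 CPM at ZT0, ZT4, ZT8, ZT12, ZT16 and ZT20. Mean Nr1d1 was 12.0 CPM at ZT4, 23.4 CPM at ZT8 and 12.1 CPM at ZT12, and mean Nr1d2 was highest at ZT12 (63.4 ± 10.2 CPM). The corresponding control levels were higher at ZT12, 49.6 CPM for Dbp, 264 CPM for Nr1d2 and 21.4 CPM for Ciart. The fall across lights off in controls was -2.55, -1.06 and -2.83 on the log2 scale, and no difference from the cKOt change passed the test (adjusted p of 0.605, 0.872 and 0.582).

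The clock activators behaved otherwise. None of the 5 activators tested was called in cKOt kidney (median 0.04), whereas 4 of 5 rose in controls, where 10.4% of all genes were called in either direction. Arntl read 20.1, 17.5, 14.6, 16.5 and 18.2 CPM at ZT12 and 20.3, 20.2, 21.6, 20.9 and 19.6 CPM at ZT16 in cKOt mice, and in controls it averaged 2.77 ± 1.54 and 21.5 ± 10.6 CPM. A count over the whole gene also takes up reads from an allele that has lost an exon, so these values do not check the deletion. Npas2 read 40.1, 49.4, 38.3, 47.9 and 41.0 CPM and then 50.8, 54.5, 40.9, 47.9 and 47.6 CPM in cKOt mice, against 0.863 ± 0.299 and 4.88 ± 2.37 CPM in controls.

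The change across lights off differed between the genotypes for Arntl (cKOt minus control -2.70, SE 0.33, edgeR adjusted p = 1.11e-06) and for Npas2 (-2.42, SE 0.43, adjusted p = 0.00123). Rora, a receptor that activates Arntl (99.1 ± 17.5 and 74.1 ± 7.40 CPM), and Clock (129 ± 20.0 and 130 ± 8.49 CPM) were not called in cKOt kidney, and Rorb fell below the filter on low counts. Rora was called lower without RUVs factors (-0.42, edgeR adjusted p = 0.00809) and without ZT12 mouse 3 (-0.37, adjusted p = 0.0304).

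The E-box letters CACGTG were looked for on both strands of RefSeq promoters (GRCm38.p6, from 250 bases before to 50 bases after the start). They occurred in 4 of the 9 clock repressors with a promoter in the table (44.4%: Per1, Cry1, Bhlhe41 and Ciart) and in 8.09% of 27025 genes. Among the 11416 genes tested that have a promoter there, the share was 11.4%. Cry1 holds the letters and was not called, while Dbp and Nr1d2 fell and have none in these promoters. The promoters of Ciart (chr3:95882179-95882478, minus strand) and Bhlhe41 (chr6:145865371-145865670, minus strand) are shown, since both genes fell and their E-box letters are those bound by BMAL1 and its partners. Capitals mark the E-boxes, and the match is a description of the letters only.
Ciart: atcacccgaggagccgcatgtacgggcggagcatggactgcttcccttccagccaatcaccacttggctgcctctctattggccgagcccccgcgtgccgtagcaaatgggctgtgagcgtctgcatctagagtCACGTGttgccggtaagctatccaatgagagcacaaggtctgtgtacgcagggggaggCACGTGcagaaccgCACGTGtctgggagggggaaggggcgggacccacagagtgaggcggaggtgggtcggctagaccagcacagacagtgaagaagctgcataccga
Bhlhe41: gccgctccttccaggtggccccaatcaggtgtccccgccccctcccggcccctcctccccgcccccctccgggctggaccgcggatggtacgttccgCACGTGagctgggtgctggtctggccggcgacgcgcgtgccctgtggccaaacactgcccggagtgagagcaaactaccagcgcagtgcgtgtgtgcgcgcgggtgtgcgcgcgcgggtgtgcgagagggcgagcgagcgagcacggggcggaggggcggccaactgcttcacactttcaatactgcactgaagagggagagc

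ER chaperone genes had the highest share of calls of the 29 lists, and all were increases. Of 22 genes of the ER chaperone and unfolded protein response list, 20 rose and none fell, beside 6.37% of all genes, with a median of 0.70. All 22 had a positive sign, and in 19 of them every ZT16 mouse lay above every ZT12 mouse, beside 6.70% of all genes. The counts were 19 without ZT12 mice 1 and 5 and 19 to 20 when single mice were left out.

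Hspa5 encodes BiP, the central ER chaperone that binds unfolded proteins and restrains the ER stress sensors, and lies on chromosome 2 from 34771970 to 34777547. It read 344, 334, 361, 310 and 332 CPM at ZT12 and 905, 1112, 1000, 691 and 882 CPM at ZT16. The lowest ZT16 mouse stood well above the highest ZT12 mouse, and the fitted rise was 2.84-fold (log2 fold change 1.5, SE 0.15, edgeR adjusted p = 9.08e-10). Within batches 2, 3 and 4 the log2 differences were 1.73, 1.54 and 0.93. Over the day, mean Hspa5 was 649, 418, 352, 336, 918 and 700 CPM at ZT0, ZT4, ZT8, ZT12, ZT16 and ZT20, so that lights off was its lowest and ZT16 its highest time.

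Sdf2l1, a partner of BiP in the ER lumen, showed the greatest increase among the genes named by rule. It read 2.60, 1.98, 2.38, 1.54 and 1.32 CPM at ZT12 and 15.0, 19.4, 17.8, 9.74 and 15.8 CPM at ZT16, a 7.39-fold rise (log2 fold change 2.88, SE 0.26, edgeR adjusted p = 2.03e-11). Manf, a secreted factor retained in the ER by BiP, went from 25.3, 27.1, 30.9, 28.0 and 26.2 CPM to 75.7, 93.3, 89.4, 68.5 and 69.5 CPM (log2 fold change 1.60, SE 0.17, edgeR adjusted p = 1.12e-09). Neither gene showed any overlap between the time points.

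Creld2, an ER protein with disulfide isomerase activity, read 14.4, 15.9, 21.5, 15.6 and 14.5 CPM and then 53.3, 70.3, 54.1, 35.7 and 50.0 CPM (log2 fold change 1.55, SE 0.19, edgeR adjusted p = 5.50e-08). Hyou1, a nucleotide exchange factor for BiP, read 59.7, 76.8, 79.9, 71.7 and 68.4 CPM and then 191, 248, 165, 148 and 199 CPM (log2 fold change 1.28, SE 0.14, edgeR adjusted p = 1.62e-09). In every one of these genes ZT16 mouse 4 was the lowest of its group and mouse 2 was the highest, yet all stood above the ZT12 range. Derl3, a factor of ER-associated degradation, rose from 0.149 to 0.463 CPM to 0.745 to 3.81 CPM, with 3 to 71 reads per library (log2 fold change 2.75, SE 0.48, edgeR adjusted p = 6.11e-05).

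The rest of the ER list rose by smaller amounts. Hsp90b1, encoding the ER HSP90, rose from 358 ± 42.4 to 649 ± 92.0 CPM and the calcium-binding chaperone Calr from 316 ± 16.7 to 541 ± 54.0 CPM (log2 fold changes of 1.03 and 0.77, both genes chosen after their values were seen). The disulfide isomerases Pdia4, Pdia6 and Pdia3 rose by 0.82, 0.74 and 0.53, and the transcription factor Xbp1 by 0.48 on the log2 scale, the last a call lost without ZT12 mice 1 and 5 (edgeR adjusted p = 0.115). The 2 members that did not pass were Herpud1 (0.18, edgeR adjusted p = 0.218) and the sensor Atf6 (0.09, adjusted p = 0.216).

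Per mouse, the ER list's mean level, on a log2 scale centred on the 10 mice, was -0.38, -0.40, -0.39, -0.44 and -0.43 at ZT12 and 0.38, 0.65, 0.45, 0.19 and 0.38 at ZT16. The 5 ZT12 mice, including the libraries that stood apart, lay within a narrow band. Control kidneys had 18 of 22 members called higher (median 0.615), and none of the 22 differed between the genotypes.

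**Figure D3:**
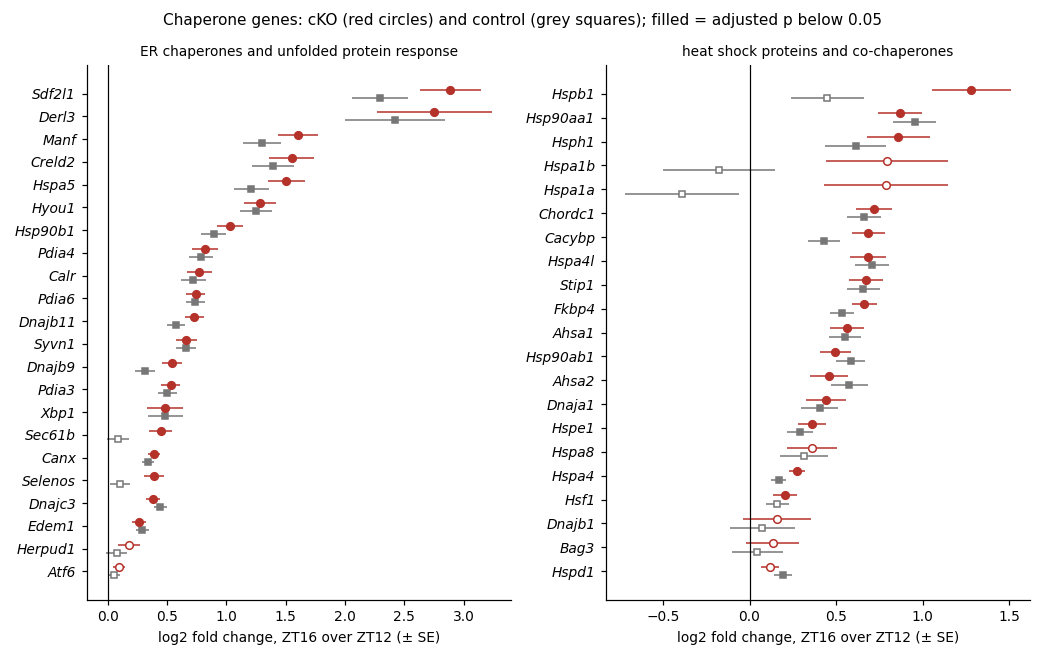
Log2 fold change of ZT16 over ZT12 (horizontal axis, point and SE) of each member of the ER chaperone list (left) and the heat shock list (right) in cKOt (red circles) and control (grey squares) kidney, filled where the adjusted p was below 0.05. All 22 ER genes and all 21 heat shock genes lie to the right of 0 in cKOt mice, from 0.09 (Atf6) to 2.88 (Sdf2l1) and from 0.12 (Hspd1) to 1.28 (Hspb1).

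The ER stress element, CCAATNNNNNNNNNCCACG, was searched on both strands, a motif added after the data had been seen. It was present in 9 of 19 ER list genes with a promoter in the table (47.4%) and in 37 of 27025 genes (0.137%). The promoters of 4 genes are shown because they carry the most strongly rising members together with this motif, which stands in capitals (as the reverse complement in Creld2, Derl3 and the second match of Hsp90b1). They lie at chr2:34771840-34772139 (plus strand, Hspa5), chr15:88819396-88819695 (plus strand, Creld2), chr10:86705395-86705694 (minus strand, Hsp90b1) and chr10:75893148-75893447 (plus strand, Derl3) of GRCm38.p6 in RefSeq.
Hspa5: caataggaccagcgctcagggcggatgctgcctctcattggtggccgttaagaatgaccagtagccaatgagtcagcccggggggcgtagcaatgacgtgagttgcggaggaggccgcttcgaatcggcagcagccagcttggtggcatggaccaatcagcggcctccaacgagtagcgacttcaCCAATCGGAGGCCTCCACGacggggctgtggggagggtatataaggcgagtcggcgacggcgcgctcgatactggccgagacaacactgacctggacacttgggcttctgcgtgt
Creld2: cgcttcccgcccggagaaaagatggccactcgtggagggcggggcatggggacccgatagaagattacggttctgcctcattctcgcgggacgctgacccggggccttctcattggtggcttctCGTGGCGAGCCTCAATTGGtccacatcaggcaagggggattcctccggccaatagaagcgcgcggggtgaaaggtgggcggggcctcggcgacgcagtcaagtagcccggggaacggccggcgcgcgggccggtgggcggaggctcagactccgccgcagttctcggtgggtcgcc
Hsp90b1: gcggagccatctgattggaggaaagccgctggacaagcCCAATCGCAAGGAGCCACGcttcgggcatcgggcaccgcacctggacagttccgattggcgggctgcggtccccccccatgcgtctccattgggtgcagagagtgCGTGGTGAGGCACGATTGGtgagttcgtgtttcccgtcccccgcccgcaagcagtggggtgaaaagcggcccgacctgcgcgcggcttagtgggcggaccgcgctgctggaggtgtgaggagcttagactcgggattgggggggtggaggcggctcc
Derl3: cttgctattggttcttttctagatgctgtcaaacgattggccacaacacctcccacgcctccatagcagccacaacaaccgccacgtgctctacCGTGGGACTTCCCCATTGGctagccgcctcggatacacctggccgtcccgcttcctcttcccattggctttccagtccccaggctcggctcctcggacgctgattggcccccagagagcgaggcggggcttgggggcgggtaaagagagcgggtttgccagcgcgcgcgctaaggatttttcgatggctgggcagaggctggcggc

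Cytosolic chaperones rose as well. Of 21 heat shock proteins and co-chaperones, 15 rose and none fell (median 0.56), all 21 were positive in sign, and 14 to 16 were called when single mice were left out. Hsp90aa1, the inducible cytosolic HSP90, read 142, 137, 158, 130 and 141 CPM at ZT12 and 257, 269, 246, 231 and 232 CPM at ZT16, without overlap (log2 fold change 0.87, SE 0.13, edgeR adjusted p = 2.98e-06). Fkbp4, an HSP90 co-chaperone of steroid receptors, read 105, 140, 159, 138 and 117 CPM and then 250, 227, 258, 221 and 221 CPM (log2 fold change 0.66, SE 0.072, edgeR adjusted p = 2.68e-09). Every ZT16 mouse lay above every ZT12 mouse in Fkbp4, and the lowest ZT12 values were those of mice 1 and 5.

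Hspb1, the small heat shock protein HSP27, rose from 1.94 ± 0.781 to 5.76 ± 0.791 CPM (log2 fold change 1.28, edgeR adjusted p = 7.32e-05). The HSP90 partners Chordc1 (65.8 ± 3.42 to 96.3 ± 11.9 CPM, adjusted p = 1.41e-06) and Cacybp (40.5 ± 4.41 to 56.9 ± 6.94 CPM, adjusted p = 1.08e-06) rose too. The 6 members that did not pass included the stress-inducible pair Hspa1a and Hspa1b (both 0.79, adjusted p of 0.142 and 0.133), whose near-identical sequences can share reads, and the constitutive Hspa8 (0.36, adjusted p = 0.0881). Controls had 14 of 21 called higher, with a median of 0.431, and no member differed between the genotypes. Cirbp, an RNA-binding protein induced by cold, fell from 28.5 ± 4.44 to 23.3 ± 6.03 CPM (log2 fold change -0.60, edgeR adjusted p = 0.00954), but the pair of mice in batch 4 differed by 0.17 in the other direction and the call was lost without RUVs factors (adjusted p = 0.284).

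The heat shock element letters GAANNTTC, on either strand, occurred in 10 of 17 heat shock list genes with a promoter in the table (58.8%) and in 9.04% of all genes there. Fkbp4 (chr6:128438607-128438906, minus strand), Chordc1 (chr9:18292017-18292316, plus strand) and Hspb1 (chr5:135887669-135887968, plus strand) are shown as rising members that hold them, with the matches in capitals.
Fkbp4: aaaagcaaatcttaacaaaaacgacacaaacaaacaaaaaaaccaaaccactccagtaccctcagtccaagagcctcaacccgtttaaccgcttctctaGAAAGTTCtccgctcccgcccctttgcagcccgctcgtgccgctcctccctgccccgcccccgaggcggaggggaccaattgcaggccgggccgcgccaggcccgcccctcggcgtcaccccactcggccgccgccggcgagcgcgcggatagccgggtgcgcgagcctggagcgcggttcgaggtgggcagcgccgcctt
Chordc1: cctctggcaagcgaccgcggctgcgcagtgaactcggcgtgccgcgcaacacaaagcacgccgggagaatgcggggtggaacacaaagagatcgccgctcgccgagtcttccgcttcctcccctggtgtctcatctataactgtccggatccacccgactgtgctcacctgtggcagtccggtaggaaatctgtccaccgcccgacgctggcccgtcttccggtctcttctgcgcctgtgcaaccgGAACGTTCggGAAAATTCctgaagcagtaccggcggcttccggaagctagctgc
Hspb1: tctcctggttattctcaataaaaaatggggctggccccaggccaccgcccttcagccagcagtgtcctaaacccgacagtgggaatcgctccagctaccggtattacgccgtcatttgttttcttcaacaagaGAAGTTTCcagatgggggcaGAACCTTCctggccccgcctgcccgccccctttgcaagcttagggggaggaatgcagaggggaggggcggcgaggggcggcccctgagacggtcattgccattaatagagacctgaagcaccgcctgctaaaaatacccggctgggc

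Fatty acid oxidation genes fell, partly through 1 mouse. Of 32 PPAR alpha targets and fatty acid oxidation genes, 16 fell and none rose (median -0.25), but the list's mean level per mouse was -0.12, 0.09, 0.83, -0.03 and 0.07 at ZT12 and -0.15, -0.26, -0.17, -0.00 and -0.25 at ZT16. ZT12 mouse 3 stood far above the other 9. Without it 6 members fell and the median was -0.17. These 6 were Cpt1a, Cpt2, Slc22a5, Slc27a2, Acsl1 and Vnn1. Leaving out ZT12 mice 1 and 5 gave 18 members lower.

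Cpt1a, which encodes the rate-limiting enzyme of fatty acid entry into mitochondria, did not rest on that mouse. It read 454, 547, 607, 511 and 576 CPM at ZT12 and 345, 372, 300, 353 and 354 CPM at ZT16, without overlap (log2 fold change -0.68, SE 0.073, edgeR adjusted p = 1.62e-09). Slc22a5, which encodes the carnitine transporter OCTN2, read 139, 167, 249, 167 and 206 CPM and then 124, 124, 137, 124 and 124 CPM (log2 fold change -0.52, SE 0.10, edgeR adjusted p = 0.000435). Vnn1, a pantetheinase and PPAR alpha target, read 104, 135, 246, 132 and 165 CPM and then 80.1, 78.5, 72.6, 92.8 and 65.0 CPM (log2 fold change -0.91, SE 0.18, edgeR adjusted p = 0.000228). In each of them mouse 3 was the highest at ZT12, and the other 4 ZT12 mice still exceeded all ZT16 mice.

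Further members with the greatest falls did rest on mouse 3, and were chosen after their values were seen, apart from Creb3l3. Creb3l3, a membrane-bound transcription factor of lipid metabolism, read 0.111, 0.104, 1.64, 0 and 0 CPM at ZT12 and 0 to 0.156 CPM at ZT16, and had the largest fitted fall of the list (-2.96, edgeR adjusted p = 0.0235), which became -0.20 without mouse 3 (adjusted p = 0.950) and was not called without ZT16 mouse 4 either (adjusted p = 0.0624). Cyp4a14, a fatty acid omega-hydroxylase, read 32.3, 32.1, 614, 30.3 and 27.9 CPM and then 26.1, 9.39, 31.9, 32.3 and 10.3 CPM, and its log2 fold change of -2.21 (edgeR adjusted p = 0.0247) became -0.34 without mouse 3 (adjusted p = 0.788), with an adjusted p of 0.0510 without ZT16 mouse 4. Apart from mouse 3 the time points overlapped. Cyp4a10, Angptl4 and Ehhadh lost their calls in the same way, with adjusted p-values of 0.472, 0.355 and 0.541 without mouse 3, as did Fabp1, a fatty acid binding protein gene outside the list (0.697). Cyp4a10 and Cyp4a14 belong to a gene family of near-identical members, between which reads can be split.

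**Figure D4:**
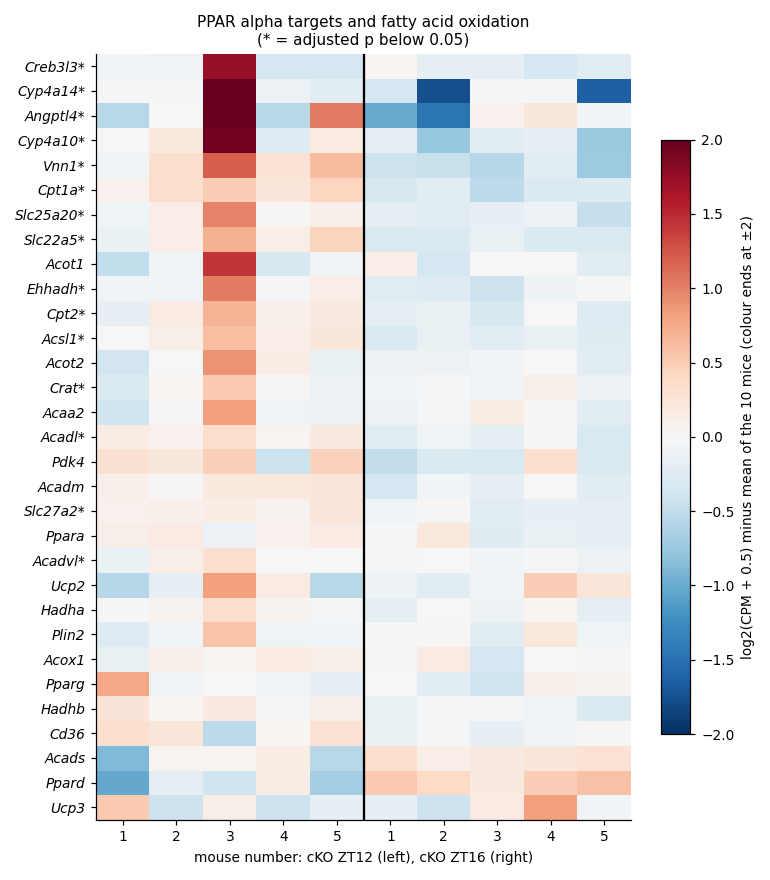
Log2 of CPM + 0.5 of 31 PPAR alpha and fatty acid oxidation genes (rows) in the 10 cKOt mice (columns, ZT12 left and ZT16 right), each row centred on its mean, with the colour scale ending at ±2 and called genes starred. ZT12 mouse 3 has the highest list level (0.83) and the highest Cyp4a14, whereas Cpt1a is lower in all 5 ZT16 mice.

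In controls the same list did not fall. There 4 members rose and 1 fell, with a median of 0.0969. The difference between the genotypes in the change across lights off passed for 3 of the 32 members, beside 0.36% of all genes. These were Cpt2 (-0.56, SE 0.13, edgeR adjusted p = 0.0272), the acyl-CoA synthetase gene Acsl1 (-0.72, SE 0.13, adjusted p = 0.00194) and the acyl-CoA dehydrogenase gene Acadl (-0.37, SE 0.089, adjusted p = 0.0384). Without ZT12 mouse 3, and also without RUVs factors, the differences of Cpt2 and Acadl were not called, and that of Acsl1 was. Acsl1 read 356, 388, 543, 391 and 419 CPM at ZT12 and 288, 320, 304, 323 and 301 CPM at ZT16 in cKOt mice, all lower, and rose from 210 ± 22.1 to 259 ± 19.6 CPM in controls.

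Some genes of fasting fell as well. Of 18 FOXO and fasting-induced genes 4 fell and none rose (median -0.11), beside 6.34% of all genes that fell. Pik3ip1, an inhibitor of PI3 kinase, fell from 6.83 ± 1.02 to 4.59 ± 1.03 CPM (log2 fold change -0.68, edgeR adjusted p = 9.97e-05), and the transcription factor Foxo3 from 77.4 ± 5.53 to 61.7 ± 3.13 CPM (-0.38, adjusted p = 0.00142). The insulin receptor gene Insr fell from 186 ± 26.6 to 143 ± 10.7 CPM (-0.26, adjusted p = 0.00433). Foxo1 fell by 0.22 on the log2 scale (adjusted p = 0.0474), a call lost without ZT12 mice 1 and 5 (adjusted p = 0.0886) and without ZT16 mouse 4 (0.0573).

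Of 22 autophagy and lysosome genes 4 fell and 1 rose. Wipi1, which acts in autophagosome formation, read 46.8, 50.9, 38.3, 52.1 and 48.2 CPM at ZT12 and 27.0, 29.7, 31.3, 32.5 and 33.6 CPM at ZT16, without overlap (log2 fold change -0.68, SE 0.088, edgeR adjusted p = 1.82e-07). Gabarapl1, an autophagosome membrane protein, fell from 688 ± 40.9 to 502 ± 35.3 CPM (-0.43, adjusted p = 1.59e-05), and Atg14, a subunit of the lipid kinase complex of autophagy, from 22.4 ± 1.63 to 18.8 ± 0.982 CPM (-0.26, adjusted p = 0.0175). The kinase gene Ulk1 fell by 0.40 in the fit (adjusted p = 4.94e-05), but by 0.14 without RUVs factors (adjusted p = 0.404). Tfeb, a transcription factor for lysosomal genes, rose from 6.20 ± 1.90 to 12.2 ± 2.10 CPM (0.46, adjusted p = 0.00183).

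Glucocorticoid-induced genes fell in 7 of 18 cases and rose in none (median -0.37), beside 6.34% of all genes that fell. The 7 include Per1 and Cdkn1a, which are also counted in the clock repressor and p53 lists, and 1 of the 7 was called under all alternatives. The list's level per mouse overlapped, at -0.15, 0.20, 0.07, 0.35 and -0.00 at ZT12 and -0.18, -0.21, 0.08, -0.08 and -0.08 at ZT16. Zbtb16, a transcription factor strongly induced by glucocorticoids, read 18.9, 25.8, 21.8, 19.4 and 17.7 CPM at ZT12 and 12.1, 13.9, 9.18, 4.74 and 8.77 CPM at ZT16, 2.59-fold lower without overlap (log2 fold change -1.37, SE 0.36, edgeR adjusted p = 0.00620). Sgk1, the kinase that raises sodium channel activity, fell by 0.61 (adjusted p = 0.0326) with overlap, a call lost without ZT12 mice 1 and 5 (adjusted p = 0.0699) and without ZT12 mouse 3 (0.132), and the pair of batch 3 differed by 0.42 in the other direction. Klf9 fell by 0.34 (adjusted p = 0.0287), while the pair of batch 4 differed by 0.18 in the other direction. The classical responders Fkbp5 (-0.20, adjusted p = 0.550) and Tsc22d3 (-0.01, adjusted p = 0.969) did not pass. Without RUVs factors the list's count was 3, and it was 3 to 7 when single mice were left out, 3 being the count without ZT12 mouse 4.

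None of 22 immediate early genes was called (median 0.01). Junb read 0.663, 3.28, 1.89, 4.06 and 1.06 CPM at ZT12 and 5.71, 0.912, 15.6, 11.3 and 8.83 CPM at ZT16, a wide spread with ZT16 mouse 2 among the lowest (0.85, edgeR adjusted p = 0.109). Without RUVs factors Junb was called higher (1.94, edgeR adjusted p = 0.00765), and the list then had 3 members higher. Ier3 stood at 22.5 ± 5.76 and 19.6 ± 3.82 CPM (adjusted p = 0.0718).

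Some lipid synthesis genes rose. Of 14 fatty acid synthesis genes 3 rose and none fell (median 0.35). Srebf1, which encodes the lipogenic factor SREBP1, read 15.6, 19.4, 15.3, 24.0 and 11.4 CPM at ZT12 and 48.1, 26.8, 32.3, 40.5 and 32.9 CPM at ZT16, without overlap (log2 fold change 0.57, SE 0.14, edgeR adjusted p = 0.00489). Acly, the source of cytosolic acetyl-CoA, read 145, 175, 151, 172 and 148 CPM and then 251, 218, 203, 219 and 235 CPM (0.38, SE 0.065, adjusted p = 4.63e-05). The desaturase gene Scd2 rose from 127 ± 19.5 to 170 ± 7.25 CPM (adjusted p = 0.0103), a call lost without ZT12 mouse 3 (adjusted p = 0.0555). Leaving out ZT12 mice 1 and 5 gave 6 members higher.

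Of 25 cholesterol synthesis genes and SREBP2 targets 5 rose and 1 fell (median 0.15). The pathway enzymes Mvd (28.1 ± 7.59 to 48.6 ± 3.47 CPM, edgeR adjusted p = 0.000237), Lss (23.6 ± 1.23 to 31.8 ± 2.74 CPM, adjusted p = 0.00715) and Sqle (51.1 ± 1.29 to 66.0 ± 6.47 CPM, adjusted p = 0.0179) rose, and Nsdhl fell (96.0 ± 9.31 to 76.5 ± 4.98 CPM, adjusted p = 0.0425, or 0.0564 without ZT12 mouse 3). Without ZT12 mice 1 and 5 the list had 2 members higher, and the call of Sqle was lost (adjusted p = 0.0584).

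Calls among transport genes differed between lists. In the proximal tubule 3 of 29 transporter and receptor genes fell and 1 rose (median -0.03), close to the 12.7% of all genes called in either direction. Slc6a19, the apical transporter of neutral amino acids, read 403, 368, 415, 400 and 470 CPM at ZT12 and 182, 228, 196, 244 and 215 CPM at ZT16, 1.93-fold lower without overlap (log2 fold change -0.95, SE 0.12, edgeR adjusted p = 5.06e-08). The control change was -0.92. Aqp1, the water channel of proximal tubule and descending limb, rose from 687 ± 74.2 to 916 ± 65.3 CPM (0.32, adjusted p = 0.000638). The endocytic receptor gene Cubn fell by 0.29 (adjusted p = 0.0431) and the bicarbonate cotransporter gene Slc4a4 by 0.19 (adjusted p = 0.0334), both lost without ZT12 mice 1 and 5 (adjusted p of 0.0893 and 0.0567). Cubn was also lost without ZT12 mouse 3 (0.0895) and without ZT16 mouse 4 (0.0936).

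Slc5a8, a monocarboxylate transporter, fell from 629 ± 77.5 to 434 ± 40.0 CPM (-0.37, edgeR adjusted p = 0.00126), and Slc7a9, the cystine transporter subunit, from 172 ± 8.31 to 133 ± 13.1 CPM (-0.37, adjusted p = 0.00157). They were the 2 called of 15 genes in the gluconeogenesis and ammoniagenesis list. None of 22 thick limb and distal transport genes was called (median 0.11). The closest were Bsnd, the chloride channel subunit barttin, at 45.2 ± 3.62 and 57.4 ± 5.63 CPM (adjusted p = 0.0580), and the potassium channel gene Kcnj1 at 329 ± 17.8 and 348 ± 21.2 CPM (adjusted p = 0.0829). Without RUVs factors 4 of the 22 were called higher and 1 lower, and Bsnd was among those higher (0.35, edgeR adjusted p = 0.00645).

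In the collecting duct list 4 of 21 genes rose and 5 fell, beside 6.37% and 6.34% of all genes. Aqp4 had the largest called change, from 20.2 ± 5.34 to 28.6 ± 10.2 CPM with overlap (0.67, edgeR adjusted p = 0.0279). Its call was lost without ZT12 mice 1 and 5 (adjusted p = 0.0695), ZT12 mouse 3 (0.0630), ZT16 mouse 4 (0.0711) or RUVs factors (0.207). Avpr2, the vasopressin receptor of the collecting duct, read 13.0, 16.1, 19.6, 19.7 and 10.4 CPM at ZT12 and 25.7, 23.9, 24.3, 22.5 and 23.5 CPM at ZT16, without overlap (log2 fold change 0.40, SE 0.090, edgeR adjusted p = 0.00151). Hsd11b2, which protects the mineralocorticoid receptor from glucocorticoids, rose from 80.7 ± 17.6 to 120 ± 10.1 CPM (0.34, adjusted p = 0.00107), and the proton pump subunit Atp6v1b1 from 88.0 ± 10.8 to 117 ± 8.16 CPM (0.27, adjusted p = 0.00274). Beside these, the 6 collecting duct markers summed to 257 to 339 CPM at ZT12 and 364 to 415 CPM at ZT16, with Avpr2 and Atp6v1b1 the 2 called, and the part of tissue sampling in this was not tested. Falling members were the endothelin receptor gene Ednrb (31.0 ± 2.25 to 21.9 ± 2.20 CPM, adjusted p = 0.0223, but 0.0827 without ZT12 mouse 3 and 0.0729 without ZT16 mouse 4), the potassium channel gene Kcnma1 (3.89 ± 0.751 to 2.38 ± 0.317 CPM, adjusted p = 0.0118), Usp2, a deubiquitinase under clock control, by 0.34 (adjusted p = 0.0175), the ubiquitin ligase gene Nedd4l by 0.25 (adjusted p = 0.0185), and Sgk1.

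The counts of stress-response lists outside the chaperones stand beside 12.7% of all genes called in either direction. Hmox1, heme oxygenase 1, read 7.02, 10.1, 20.1, 9.15 and 10.9 CPM at ZT12 and 27.4, 42.9, 43.8, 17.2 and 20.5 CPM at ZT16 (log2 fold change 1.18, SE 0.20, edgeR adjusted p = 4.73e-05). Only ZT12 mouse 3 reached into the ZT16 range, and the pair of batch 4, which includes that mouse, differed by -0.22. In the NRF2 list 2 of 22 rose and 1 fell, with Nqo1 lower by 0.33 (adjusted p = 0.0461, but 0.142 without ZT12 mouse 3 and 0.0511 without ZT16 mouse 4). Of 20 ATF4 targets, Gdf15, a stress cytokine, rose from 0.765 ± 0.332 to 2.66 ± 0.958 CPM (1.12, adjusted p = 0.0133, or 0.0596 without ZT16 mouse 4) and the serine synthesis gene Psph from 8.97 ± 0.833 to 12.5 ± 0.688 CPM (0.40, adjusted p = 0.00642). In the hypoxia list of 16, Vegfa (0.22, adjusted p = 0.00304) and the prolyl hydroxylase gene P4ha1 (0.53, adjusted p = 0.000205) rose and Pdk1 (-0.23, adjusted p = 0.0428, or 0.0773 without ZT16 mouse 4) fell.

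Among 17 NAD synthesis genes 2 rose and 2 fell. Acmsd, which diverts tryptophan breakdown away from NAD, rose from 90.4 ± 17.9 to 138 ± 19.8 CPM (0.66, edgeR adjusted p = 0.00219), and Nadk rose by 0.13 (adjusted p = 0.0421). Nadsyn1 fell by 0.27 (adjusted p = 0.0119, but 0.407 without RUVs factors) and Kmo by 0.19 (adjusted p = 0.0223). Without ZT12 mice 1 and 5 neither Nadk nor Kmo was called (adjusted p of 0.228 and 0.0693). The polyamine list had 2 of 12 higher and 1 lower, Paox, a polyamine oxidase, from 6.10 ± 1.03 to 3.84 ± 0.369 CPM (-0.70, adjusted p = 0.00166). The rises were those of Amd1 (0.34, adjusted p = 0.0253) and Azin1 (0.20, adjusted p = 0.0112). Neither was called without ZT12 mice 1 and 5 (edgeR adjusted p of 0.107 and 0.0712) or without RUVs factors (0.204 and 0.851). Of 23 cell cycle and p53 genes Bax rose (0.32, adjusted p = 0.0200, or 0.0991 without ZT12 mice 1 and 5) and Cdkn1a fell (-0.62, adjusted p = 0.0421, but 0.120 without RUVs factors, 0.0545 without ZT12 mouse 3 and 0.0660 without ZT16 mouse 4), and of 8 vitamin D and phosphate genes the parathyroid hormone receptor gene Pth1r rose (0.23, adjusted p = 0.0100, or 0.0970 without ZT12 mice 1 and 5).

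Ribosomal protein genes moved with the libraries that stood apart. Of 80 cytosolic ribosomal protein genes 10 rose and none fell (median 0.152), and of 79 nuclear genes of oxidative phosphorylation 5 rose (median 0.11), a share close to the 6.37% of all genes. The ribosomal list's level per mouse was -0.29, -0.03, 0.01, -0.06 and -0.34 at ZT12 and 0.26, -0.01, 0.34, 0.10 and 0.02 at ZT16, lowest in ZT12 mice 1 and 5. Without these 2 mice 0 ribosomal and 1 respiratory gene were called higher by edgeR, while without RUVs factors the counts were 37 and 23. Rpl36 read 3.10, 14.9, 12.2, 14.8 and 4.66 CPM and then 35.9, 16.0, 32.8, 22.9 and 24.5 CPM, and its fitted log2 fold change of 0.59 (adjusted p = 0.0366) was 1.41 without RUVs factors. Its call was lost without ZT12 mice 1 and 5 (adjusted p = 0.220) and without ZT12 mouse 3 (0.0803). Ribosomal protein genes have many pseudogene copies that can take up reads. None of the 7 mitochondrially encoded messenger RNAs was called, while 2 were called lower without RUVs factors and 4 with batch in their place.

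Of 24 ribosome biogenesis factors 4 rose and 2 fell. The falls were those of Npm1, from 158 ± 15.0 to 120 ± 8.68 CPM (-0.23, edgeR adjusted p = 0.00170) and Ncl, from 221 ± 21.6 to 181 ± 8.07 CPM (-0.15, adjusted p = 0.0334). Without ZT12 mice 1 and 5 the fall of Ncl (edgeR adjusted p = 0.133) and all 4 increases were not called (Fbl 0.140, Nop16 0.145, Bop1 0.128 and Nop2 0.160). Without ZT16 mouse 4 Ncl (0.0888), Fbl (0.168) and Bop1 (0.0530) were not called, nor was Fbl without ZT12 mouse 3 (0.112).

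Several genes with large changes belong to none of these pathways. Among increases, Insc, an adaptor of spindle orientation, read 1.49, 1.25, 2.63, 0.925 and 1.06 CPM at ZT12 and 4.41, 6.38, 7.63, 4.10 and 4.34 CPM at ZT16 (log2 fold change 1.71, SE 0.25, edgeR adjusted p = 2.64e-06). The histone genes Hist1h2be (1.52, adjusted p = 4.76e-05) and Hist1h4i (1.15, adjusted p = 0.00131) rose on low counts, and histone genes resemble each other enough to share reads. Tmem267 rose from 15.3 ± 3.27 to 34.3 ± 7.72 CPM (1.16, adjusted p = 0.0221), a call lost without ZT12 mice 1 and 5 (adjusted p = 0.0752), and Smcp, known from sperm mitochondria, from 1.24 ± 0.325 to 3.13 ± 0.902 CPM (1.20, adjusted p = 0.000595).

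Among decreases, Rnf212b read 6.03, 4.17, 3.13, 5.30 and 7.46 CPM and then 2.02, 1.34, 1.55, 2.08 and 1.86 CPM (log2 fold change -1.43, SE 0.24, edgeR adjusted p = 3.47e-05). Il5ra, the interleukin 5 receptor subunit, read 8.46, 11.7, 9.14, 10.3 and 13.7 CPM and then 5.86, 5.90, 3.20, 3.57 and 4.90 CPM (-1.09, SE 0.19, adjusted p = 5.70e-05). Neil2, a DNA glycosylase of base excision repair, read 7.85, 7.92, 9.04, 8.84 and 8.36 CPM and then 3.22, 4.18, 2.99, 5.54 and 4.23 CPM (-1.10, SE 0.20, adjusted p = 9.41e-05). None of the 3 overlapped between time points.

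Phf24 (-1.38, edgeR adjusted p = 0.000118), the hypoxia-inducible factor gene Hif3a (-1.30, adjusted p = 0.000447), the bile acid conjugating enzyme gene Baat (-1.05, adjusted p = 0.00456), the beta-carotene cleaving enzyme gene Bco1 (-1.02, adjusted p = 0.0118) and the helicase gene Blm (-0.99, adjusted p = 0.000656) fell at mean levels below 4 CPM. Bco1 was lost without ZT12 mouse 3 (adjusted p = 0.0676).

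Control kidney also changed across lights off, with 787 genes higher and 836 lower. Of the 1976 cKOt calls, 765 were also called in the same direction in controls, which is 38.7% of cKOt and 47.1% of control calls, and 7 were called in opposite directions. A test of the difference itself passed for 56 genes, 0.36% of those tested, 10 more positive and 46 more negative in cKOt mice. Of these 56, 31 were called in controls and not in cKOt mice, 16 in cKOt mice and not in controls, and 9 in both.

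**Figure D5:**
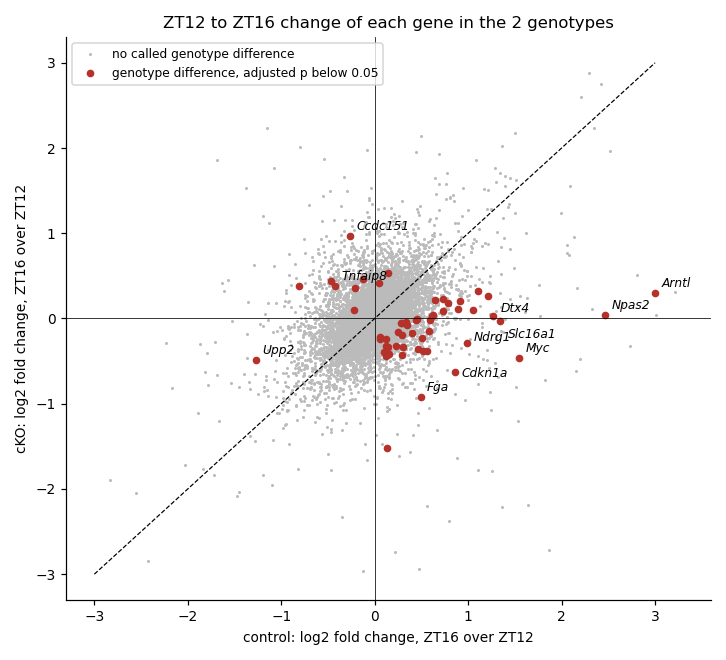
Log2 fold change from ZT12 to ZT16 in control kidney (horizontal axis) and cKOt kidney (vertical axis) for each gene tested (grey points), with the 56 genes whose change differed between the genotypes in red and the line of equal change dashed. Outside the axes lie 9 genes, none with a called difference. Arntl and Npas2 lie at the right (3.00 and 2.47 in controls) near zero on the cKOt axis.

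Beside Arntl and Npas2, 6 genes made up the 8 with the most negative differences. Ndrg1, a stress-responsive gene of the tubule, read 4149, 4484, 4043, 4200 and 4180 CPM at ZT12 and 3478, 3705, 3286, 3762 and 3214 CPM at ZT16 in cKOt mice, where it was not called (edgeR adjusted p = 0.215), and rose from 1355 to 2662 CPM in controls (difference -1.27, SE 0.20, adjusted p = 0.000232). The lactate transporter gene Slc16a1 stood at 133 ± 28.8 and 121 ± 22.1 CPM in cKOt mice and rose from 30.6 to 73.8 CPM in controls (difference -1.37, SE 0.22, adjusted p = 0.000322). Dtx4 stood at 57.8 ± 7.08 and 57.9 ± 8.33 CPM and rose from 11.0 to 25.6 CPM (difference -1.24, SE 0.25, adjusted p = 0.00481). The cKOt levels of these 3 genes exceeded both control means at both times.

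Myc read 11.3, 8.86, 9.43, 16.7 and 2.12 CPM at ZT12 and 13.1, 5.74, 9.23, 10.3 and 5.37 CPM at ZT16 in cKOt mice, a wide spread, and rose from 2.38 to 8.08 CPM in controls (difference -2.01, SE 0.43, edgeR adjusted p = 0.0119). Cdkn1a, the inhibitor of cyclin-dependent kinases p21, fell from 21.4 ± 4.91 to 15.6 ± 1.73 CPM in cKOt mice and rose from 2.80 to 5.62 CPM in controls (difference -1.48, SE 0.34, adjusted p = 0.0247). Fga, the fibrinogen alpha chain, fell from 304, 191, 165, 219 and 129 CPM to 98.5, 112, 88.8, 114 and 83.2 CPM, against 19.3 and 27.1 CPM in controls (difference -1.42, SE 0.33, adjusted p = 0.0272). Clpx, a subunit of the mitochondrial protease ClpXP named after its values were seen, fell by 0.38 in cKOt mice and rose by 0.51 in controls (difference -0.89, SE 0.13, adjusted p = 1.67e-05).

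The 8 genes with the most positive differences ran from 0.38 to 1.24. Without RUVs factors only that of Tnfaip8 was called (edgeR adjusted p = 0.0153). The others were not: Upp2 (0.104), Ak4 (0.161), Ccdc151 (0.0676), Eddm3b (0.0842), St8sia1 (0.206), Palm (0.732) and Il13ra1 (0.77). Tnfaip8 rose by 0.39 in cKOt mice (a call lost without RUVs factors, edgeR adjusted p = 0.114) and fell by 0.42 in controls (difference 0.81, SE 0.14, edgeR adjusted p = 0.000795). Upp2, uridine phosphorylase 2, fell from 23.7 ± 5.93 to 15.2 ± 1.48 CPM in cKOt mice (a call lost without ZT12 mice 1 and 5, adjusted p = 0.10) and from 51.5 to 20.1 CPM in controls (difference 0.78, SE 0.17, adjusted p = 0.0180). Ak4, a mitochondrial adenylate kinase, rose from 320 ± 28.9 to 400 ± 31.9 CPM in cKOt mice and stood at 824 and 706 CPM in controls (difference 0.59, SE 0.13, adjusted p = 0.0133). Ccdc151 (1.24, adjusted p = 0.0310), Eddm3b (1.20, adjusted p = 0.0324), St8sia1 (0.58, adjusted p = 0.0106), Palm (0.39, adjusted p = 0.00686) and Il13ra1 (0.38, adjusted p = 0.0315) made up the rest. Without ZT12 mice 1 and 5 the differences of Ccdc151, Eddm3b and Il13ra1 were not called (edgeR adjusted p of 0.0659, 0.0501 and 0.0501), and without ZT12 mouse 3 those of Upp2, Eddm3b and Il13ra1 were not (0.0606, 0.0774 and 0.0956).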

How the data were processed

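Kidney RNA of 60 mice was sequenced, 5 per genotype and time, and 10 cKOt mice (ZT12 and ZT16) were compared. The authors prepared stranded, poly(A)-selected libraries (TruSeq, from 200 ng of total RNA). Per the submitters' processing notes, reads were trimmed with cutadapt 1.8, aligned with STAR 2.5.3a to GRCm38 and counted with HTSeq 0.9.1. The deposited values are raw counts of reads per gene. Reads in no gene made up 7.80% to 10.5% and ambiguous reads 1.005% to 1.232% per library, and both were left out. ZT12 mice 1 and 5 had the lowest shares of ambiguous reads (1.009% and 1.005%). Their shares of reads in no gene were 10.2% and 10.5%, beside 10.4% in ZT16 mouse 1. Symbols and positions came from GENCODE M21 (GRCm38), which matched 55154 of 55335 identifiers.

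All 60 samples in 12 groups were fitted with edgeR 4.0.16 (R 4.3.3, quasi-likelihood F test), where the study used limma. The fit followed the study's methods in TMM scaling, a filter of 1 CPM in at least 1 sample (15546 genes, 99.91% of counts) and 2 RUVs factors, with Benjamini-Hochberg adjustment at 0.05. The control change and the difference between genotypes came from the same fit. Libraries of 17950038 to 19202421 counts limit precision for genes with few reads, and none of the replicate pairs was identical or within sampling noise. The script was tested on simulated data. Alternatives used DESeq2 1.42.0, limma 3.58.1, other filters and covariates, and left-out mice. Within-batch values are log2 differences of CPM + 0.1, and list levels are means of log2(CPM + 0.5) centred on the 10 mice. The labels do not say that replicate numbers pair the mice, and no pairing entered the main fit. Residuals of same-numbered mice correlated at 0.0368 on average (n = 5 pairs, -0.0905 to 0.207), too few pairs to decide the question.

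The groups come from the labels. The gene lists, the markers and the question were chosen with earlier results of these data known. Named genes were all clock genes, the 12 largest increases and 12 largest decreases without overlap (mean of at least 1 CPM, adjusted p below 0.05), up to 4 called members per list and direction or, with none called, the 2 with the smallest p, the called member of each list with the largest change, and the 8 largest genotype differences in each direction. Others are marked as chosen after their values were seen, or are list members given as a log2 change only. Promoter sequences came from RefSeq (GRCm38.p6). The results of some single genes are not reported here.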

Additional observations from a re-analysis of the deposited data

Results flagged for a closer look

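In 9 of 264 groups of 5 mice (3.41%; chance gives about 5%) 1 mouse lay far from the other 4 in a named gene. ZT12 mouse 3 accounted for 6 of them, with 2.43 CPM of Bco1, 1.64 CPM of Creb3l3 and 21.5 CPM of Creld2 as the highest of its group, and with 2.09 CPM of Eddm3b, 64.0 CPM of Foxo1 and 8849 CPM of mt-Nd5 as the lowest. ZT16 mouse 2 had 256 CPM of Kmo, and ZT16 mouse 3 had 137 CPM of Slc22a5 and 38.4 CPM of Ulk1.

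The change across lights off differed between the genotypes, by edgeR's test of the difference itself, for 17 of the named genes. Differences of cKOt minus control were negative for Arntl (-2.70, adjusted p = 1.11e-06), Npas2 (-2.42, 0.00123), Myc (-2.01, 0.0119), Cdkn1a (-1.48, 0.0247), Fga (-1.42, 0.0272), Slc16a1 (-1.37, 0.000322), Ndrg1 (-1.27, 0.000232), Dtx4 (-1.24, 0.00481) and Cpt2 (-0.56, 0.0272). They were positive for Ccdc151 (1.24, 0.0310), Eddm3b (1.20, 0.0324), Tnfaip8 (0.81, 0.000795), Upp2 (0.78, 0.0180), Ak4 (0.59, 0.0133), St8sia1 (0.58, 0.0106), Palm (0.39, 0.00686) and Il13ra1 (0.38, 0.0315).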

How the results depend on the processing

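The 1976 calls in cKOt kidney became 3434 without RUVs factors (1789 higher, 1645 lower, 1470 shared), 3462 with batch in place of RUVs factors (1757 and 1705, 1452 shared) and 332 with a fold of at least 1.5 added (168 and 164). Among shared and lost calls, 50 and 60 had the other sign in the first and second of these fits. Leaving out single mice gave 1497 to 1889 calls, and leaving out ZT12 mice 1 and 5 together, an alternative chosen after seeing the data, gave 1380 (646 higher, 734 lower, 1294 of the 1976 among them). The 56 genotype differences became 88 by DESeq2's Wald test (24 more positive, 64 more negative), 22 without RUVs factors (1 and 21), 24 with batch (3 and 21), 30 with a fold of at least 1.5 (6 and 24) and 39 to 66 when single mice were left out. With the replicate block these 2 counts were 1932 and 58, and neither moved by over 1.5 times. The 16 falling PPAR alpha members became 10 in the fit of the 10 samples alone without RUVs factors, and 6 to 17 when single mice were left out, 6 being without ZT12 mouse 3. The cause of these shifts was not tested. The difference between genotypes was called under all 30 alternatives for Arntl, Npas2, Ndrg1, Slc16a1, Dtx4, Tnfaip8, Acsl1 and Clpx. It was lost under 5 for Myc, 9 for Cdkn1a, 9 for Fga, 13 for Ccdc151, 14 for Il13ra1 and 15 for Eddm3b. For Palm, Ak4 and St8sia1 it was lost under 2 each and for Upp2 under 5, the fit without RUVs factors among them. Of the 110 named genes called, 62 kept direction and call under all 22 alternatives, and 100 had the same direction within all 3 batches, each of which holds 1 mouse per time. Within a batch the direction was the other one for Amd1 (-0.16, batch 4), Azin1 (-0.07, batch 3), Cirbp (0.17, batch 4), Fbl (-0.03, batch 2), Hmox1 (-0.22, batch 4), Il13ra1 (-0.02, batch 3), Klf9 (0.18, batch 4), Sgk1 (0.42, batch 3), Srxn1 (-0.01, batch 4) and St8sia1 (-0.29, batch 3). Depth limits Derl3, Ciart, Creb3l3 and Fabp1, with 0 to 108 reads per library.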
